A study of Arabidopsis thaliana with 10 samples.

Results

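The lncRNAs described here are 193 predicted long noncoding RNA loci of Arabidopsis thaliana that the authors classed as cis, out of 1362 lncRNA loci with expression values (978 predicted and 384 annotated). Of 248 predicted cis loci, 55 were left out because a binding site of PIF4 or PIF5 was listed for them or because they matched a stress-related RNA structure. The rule also names level1_lnc-339 for removal, which is already among the 55 by its structure match. Of the 193 members, 95 are of the authors' level 1 and 98 of level 2, and each is given 1 value per library. The choice used the authors' columns for class, binding and structure.

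A cis lncRNA is transcribed on, opposite or close beside a protein-coding gene. Such RNAs arise from the promoter region of a gene, where RNA polymerase II can start in both directions, from the far strand at its end, or from the leader of the gene itself. In Arabidopsis some of them act on the neighbouring gene, as do the antisense transcripts (COOLAIR) and the intronic lncRNA COLDAIR of FLC, the gene of a flowering repressor that is silenced in the cold. Many lncRNAs of plants are short-lived, and some carry no poly(A) tail.

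There is 1 strand-specific library for each condition, all of 12-day-old wild-type Col-0 seedlings, from RNA freed of poly(A)+ RNA and of ribosomal RNA. The stress libraries are drought (300 mM mannitol), salt (200 mM NaCl), heat (37 °C) and cold (4 °C), each after 12 h and after 3 h, and the control is 1 untreated library at 3 h. The control is of 3 h alone, so 12 h of stress and the later time of day cannot be told apart. A sample of mixed-tissue total RNA was not analysed here. Levels are RPKM, which scale reads by exon length and by library depth, as the authors deposited them, and the whole reads behind each were recovered from the exon lengths.

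Exons of the members ran from 97 to 690 nt with a median of 273 nt, and 175 of the 193 have 1 exon. Their longest ATG-to-stop reading frame had a median of 18 codons, against 25 in the other 785 predicted loci, and the longest of all, in level1_lnc-322, had 88. The members lie on all 5 chromosomes (41, 32, 27, 33 and 60 on chromosomes 1 to 5), 98 on the plus and 95 on the minus strand. Only 5 have another near-identical copy in the genome, against 112 of the other predicted loci. The DNA conservation score, a deposited blastn bit score, had a median of 125 in the members and 140 in the other predicted loci.

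The 5 sequences below are members of 1 exon that overlap no exon of a coding gene, chosen after their values were seen because they carry the results on transcripts outside the exons of coding genes. They are level1_lnc-334, the most read such member of at most 300 nt, level2_lnc-404, which was lower under stress, and 3 members with most of their reads in a single stress. Sequences were read 5′ to 3′ from the TAIR10.1 reference, whose chromosomes match the build of the files, and capitals mark the longest ATG-to-stop frame.
level1_lnc-334 (chr5:22454986-22455245, plus strand): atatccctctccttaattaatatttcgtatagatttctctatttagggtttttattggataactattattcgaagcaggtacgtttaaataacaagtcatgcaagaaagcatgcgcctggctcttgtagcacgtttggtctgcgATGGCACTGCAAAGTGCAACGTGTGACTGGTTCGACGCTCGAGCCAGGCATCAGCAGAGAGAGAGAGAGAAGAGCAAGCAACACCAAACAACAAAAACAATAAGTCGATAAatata
level2_lnc-404 (chr4:2714370-2714614, minus strand): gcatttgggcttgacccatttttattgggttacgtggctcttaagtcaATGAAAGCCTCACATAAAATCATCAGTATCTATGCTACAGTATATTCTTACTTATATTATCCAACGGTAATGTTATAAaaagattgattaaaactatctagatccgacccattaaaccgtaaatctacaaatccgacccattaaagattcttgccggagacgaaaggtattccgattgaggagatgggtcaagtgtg
level2_lnc-287 (chr3:4595296-4595538, plus strand): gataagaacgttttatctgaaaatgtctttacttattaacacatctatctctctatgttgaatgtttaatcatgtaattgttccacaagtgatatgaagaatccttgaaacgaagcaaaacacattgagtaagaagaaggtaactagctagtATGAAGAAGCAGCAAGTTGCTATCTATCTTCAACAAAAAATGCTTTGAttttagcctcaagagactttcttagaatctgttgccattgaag
level2_lnc-498 (chr5:660231-660446, minus strand): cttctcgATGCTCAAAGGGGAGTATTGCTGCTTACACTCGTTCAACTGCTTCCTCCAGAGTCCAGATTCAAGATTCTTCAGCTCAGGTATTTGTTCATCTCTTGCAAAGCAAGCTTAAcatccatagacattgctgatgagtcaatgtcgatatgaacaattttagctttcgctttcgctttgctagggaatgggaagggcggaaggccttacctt
level1_lnc-82 (chr2:3044900-3045105, minus strand): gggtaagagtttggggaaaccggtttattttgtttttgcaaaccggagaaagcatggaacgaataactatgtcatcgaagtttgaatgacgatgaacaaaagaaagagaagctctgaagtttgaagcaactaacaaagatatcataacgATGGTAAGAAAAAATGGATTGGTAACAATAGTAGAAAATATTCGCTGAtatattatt
The frames span 111 nt (36 codons) in level1_lnc-334 and level2_lnc-498, 78 nt (25 codons) in level2_lnc-404, and 48 nt (15 codons) in level2_lnc-287 and level1_lnc-82.

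Set against the RefSeq coding genes, the members fall into 3 kinds of position. A coding gene is overlapped on the member's own strand by 51 members (26.4%, against 7.52% of the other predicted loci), on the other strand only by 76 (39.4%, against 37.7%), and 66 (34.2%, against 54.8%) lie beside a gene. Of the 51 on the gene's own strand, 34 lie in untranslated or noncoding exon sequence on the 5′ UTR side, 6 on the 3′ UTR side, 10 on coding exon and 1 in an intron. Of the 76 on the other strand, 28 lie on the 3′ UTR side, 16 on the 5′ UTR side, 31 on coding exon and 1 in an intron. Of the 66 beside a gene, 32 lie upstream and point away from it, 16 lie upstream on its strand, 17 lie downstream and point towards it, and 1 follows it on its strand. These 66 are a median of 162.5 bp from the gene and 65 are within 500 bp, against a median of 1236 bp and 25 of 191 for the predicted intergenic loci that overlap no coding gene. The reference annotation may be later than the authors', and 24 members overlap another RefSeq noncoding gene or pseudogene on their own strand.

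**Figure D1:**
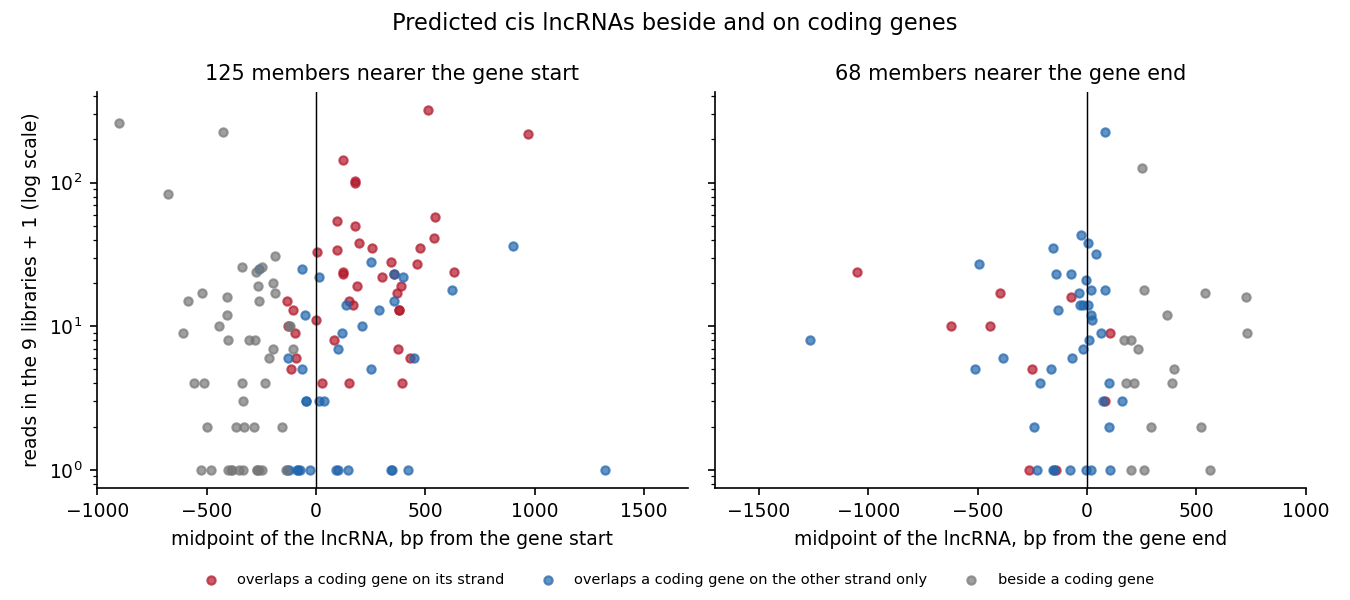
Each point is 1 member, placed by the distance of its midpoint from the start (left) or the end (right) of its coding gene in bp, negative upstream of that point and positive downstream, against its reads in the 9 libraries plus 1 on a log scale. Colours give the kind of position, 1 member lies outside the axis in each panel, and members on the gene's own strand downstream of its start reach 320 reads.

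The reads were spread very unequally over these positions. In all 9 libraries together 3748 reads fell on members, of which 1690 (45.1%) fell on the 51 that share the strand of an overlapping gene. The 34 on the 5′ UTR side alone took 1517 reads (40.5%), with a median of 23 reads each and none without a read. The 76 on the other strand took 931 reads (24.8%) with a median of 5, and the 66 beside a gene 1127 (30.1%) with a median of 6. Reads of the host mRNA, or of pieces of it left in the poly(A)- fraction, cannot be told apart from those of a lncRNA on the same strand, so the values of the 51 are those of the stretch and not of a separate transcript. The sources used here do not say whether counting used strand, so for the 76 the reads of the opposite gene cannot be told apart with certainty.

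The members were low everywhere. Of the 193, 37 had no read in any library, 85 had at least 10 reads in all and 46 at least 20, and only 8 had reads in every library. In the control 33 members had a read, the highest count being 15, while 123 members had reads under stress and none in the control. Only level2_lnc-404 reached 1 RPKM in the control, against 62 members in any library. One read on an RNA of the median length was worth 0.0989 RPKM in the deepest library, heat at 3 h, and 0.208 RPKM in the shallowest, salt at 12 h. A count of 0 in a library allows up to 3 reads. With so few control reads, a lower level under stress was not detectable at this depth for most members.

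All 8 stress libraries held more member reads for their depth than the control. Summed member reads, scaled by mapped reads to RPM (the unit of RPKM without the length), were 26.2 RPM after 12 h of drought and 10.6 after 3 h, 26.2 and 15.0 for salt, 20.8 and 6.99 for heat, and 16.2 and 12.1 for cold, against 3.89 in the control. Relative to the control these are 6.72-fold and 2.73-fold for drought at 12 h and 3 h, 6.74-fold and 3.86-fold for salt, 5.33-fold and 1.80-fold for heat, and 4.18-fold and 3.12-fold for cold. Without the 6 members of most reads, which hold 37.1% of all member reads, the lowest fold is 1.86, for heat at 3 h, and the highest 6.20, for salt at 12 h. In the other predicted loci, without the single locus level1_lnc-169, the folds were lower in every library: 3.02 and 1.22 for drought at 12 h and 3 h, 2.45 and 1.31 for salt, 2.27 and 1.11 for heat, and 2.82 and 1.05 for cold. In the annotated loci, without AT1G15405, the lowest was 0.929, for salt at 3 h, and the highest 1.77, for drought at 12 h. In the control the other predicted loci summed to 72.1 RPM with level1_lnc-169 and 52.9 RPM without it, so leaving it out raised their folds. None of these folds was divided by the median ratio to the control that is used for the calls below. That ratio was largest for drought and salt at 12 h, at log2 shifts of 0.91 and 0.75. With 1 library a condition the folds are values of single libraries with no replicate check. The stress libraries had reads on 25.5% to 42.9% of the other predicted loci, against 13.1% in the control. Detection was lower in the control for annotated loci too, at 38.5%, against 52.9% to 62.5% in the stress libraries. The summed level of all annotated loci was 281.6 to 595 RPM in the stress libraries, against 396.5 RPM in the control. The part of the control's lower detection in the member folds was not tested. Nor was it tested whether predicted loci entered the catalogue through their reads under stress, which would raise such folds.

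**Figure D2:**
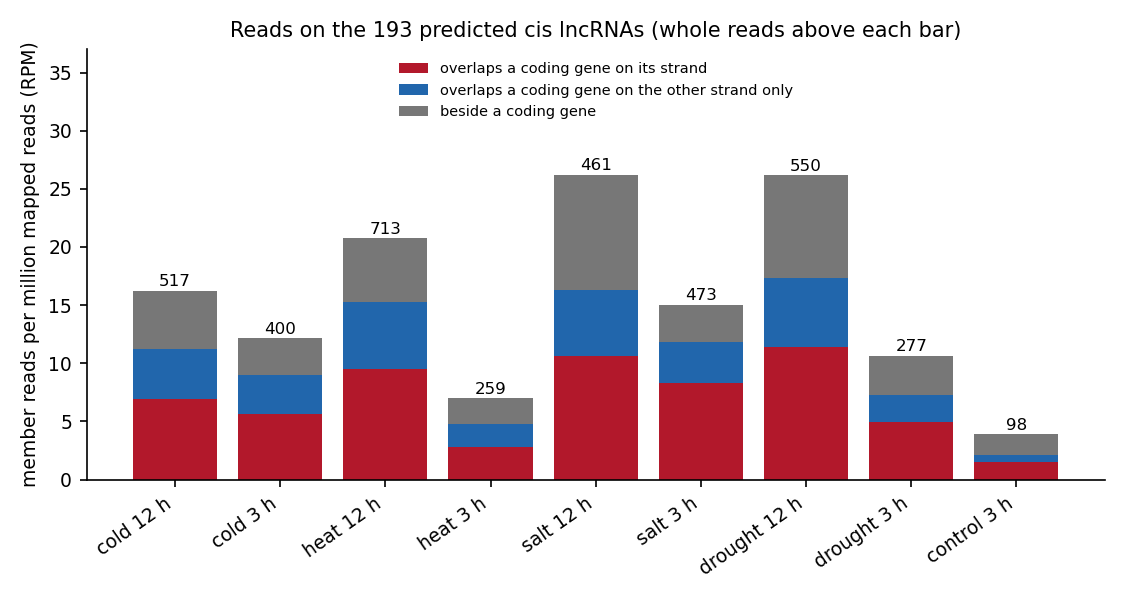
Bars give the member reads in each library in RPM, split by kind of position, with the whole member reads printed above. The control bar is the lowest at 98 reads, and each 12 h bar is taller than the 3 h bar of the same stress.

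A member was called higher or lower where log2(RPKM + 1) differed from the control by 2-fold or more. On this rule 16 members were higher in cold at 12 h (8.29%, against a background of 5.73% of all 1362 loci) and 7 at 3 h (3.63%, background 2.2%). In heat 13 were higher at 12 h (6.74%, background 4.92%) and 4 at 3 h (2.07%, background 1.17%). In salt 24 were higher at 12 h (12.4%, background 7.64%) and 12 at 3 h (6.22%, background 3.45%). In drought 19 were higher at 12 h (9.84%, background 9.4%) and 7 at 3 h (3.63%, background 3.23%). The drought shares are near the background. After division of each library by its median ratio to the control over 59 loci (log2 shifts of 0.91 and 0.46 for drought at 12 h and 3 h, 0.75 and 0.14 for salt, 0.39 and 0.04 for heat, 0.59 and 0.41 for cold) the counts were 13 and 3 for drought at 12 h and 3 h, 13 and 11 for salt, 12 and 3 for heat, and 7 and 5 for cold. As shares these were 6.74% and 1.55% of the members for drought (backgrounds of 4.55% and 1.84% of all loci under the same rescaling), 6.74% and 5.70% for salt (4.11% and 3.08%), 6.22% and 1.55% for heat (3.74% and 1.1%), and 3.63% and 2.59% for cold (3.82% and 1.54%). The member share was thus below the background for cold at 12 h and drought at 3 h, and above it in the other 6 libraries.

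**Figure D3:**
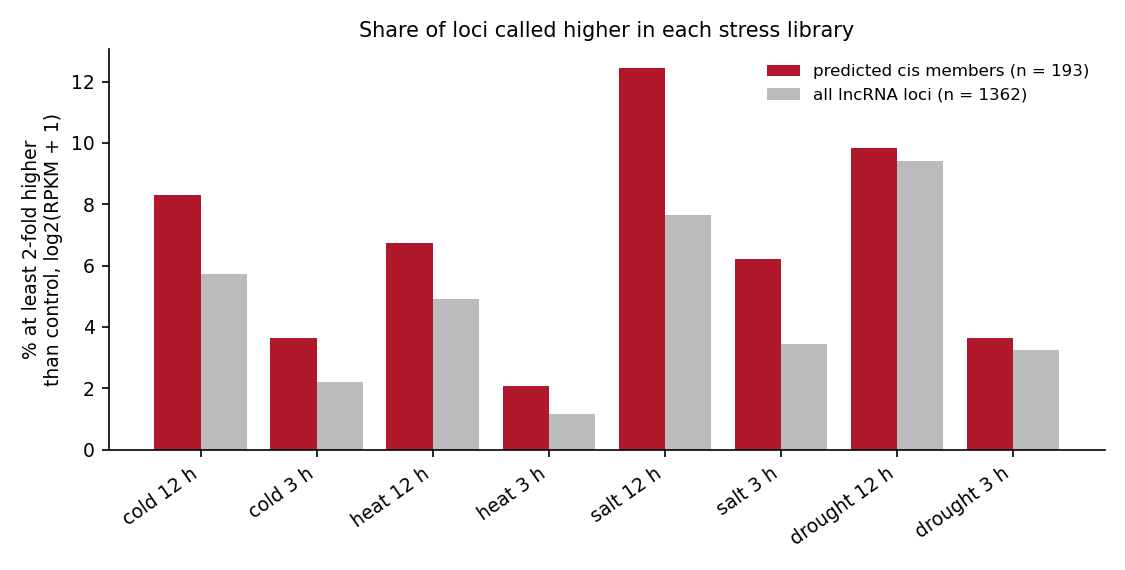
Bars give the share of members and of all lncRNA loci, in percent, that were at least 2-fold higher than the control on the log2(RPKM + 1) scale in each stress library, before any rescaling. The member bar is widest apart from the other in salt at 12 h, at 12.4% against 7.64%, and nearly level with it in drought at 12 h, at 9.84% against 9.4%.

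In any stress library 59 members were called higher (30.6%, against a background of 22% of all loci and 24.6% of the other predicted loci). Of these, 41 passed in a single stress (16 in salt, 10 in heat, 9 in drought and 6 in cold), 12 in 2 stresses, 3 in 3 and 3 in all 4. The share that passed in a single stress, 69.5% of the called members, was near that of all called loci, 71.0%. At both times of a stress the count was 5 in cold, 1 in heat, 6 in salt and 4 in drought. This count was not made over all loci, so it has no background to be set against. Called lower was level2_lnc-404 alone, in 7 of the 8 libraries (backgrounds of 1.32% for drought at 12 h, 1.17% and 2.06% for salt at 12 h and 3 h, 1.4% and 1.32% for heat, and 1.4% and 1.47% for cold). It is also the only member high enough in the control to be called lower under this rule. By position, 25 of the 51 members on the strand of their gene were called higher in any library (49.0%, against 47.5% of the other predicted loci in that position), 17 of the 76 on the other strand (22.4%, against 22.3%) and 17 of the 66 beside a gene (25.8%, against 23.0%). Pooled by position, these shares are near those of the other predicted loci, but within the 51 on the gene's strand they differed. The 25 comprise 22 of the 34 on the 5′ UTR side, which have the most reads, and 3 of the other 17. On the 5′ UTR side this is 64.7%, against 46.2% of the other predicted loci there and 55.7% of all loci. Elsewhere on the gene's strand it is 17.6%, against 48.5% of the other predicted loci and 31.7% of all loci.

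**Figure D4:**
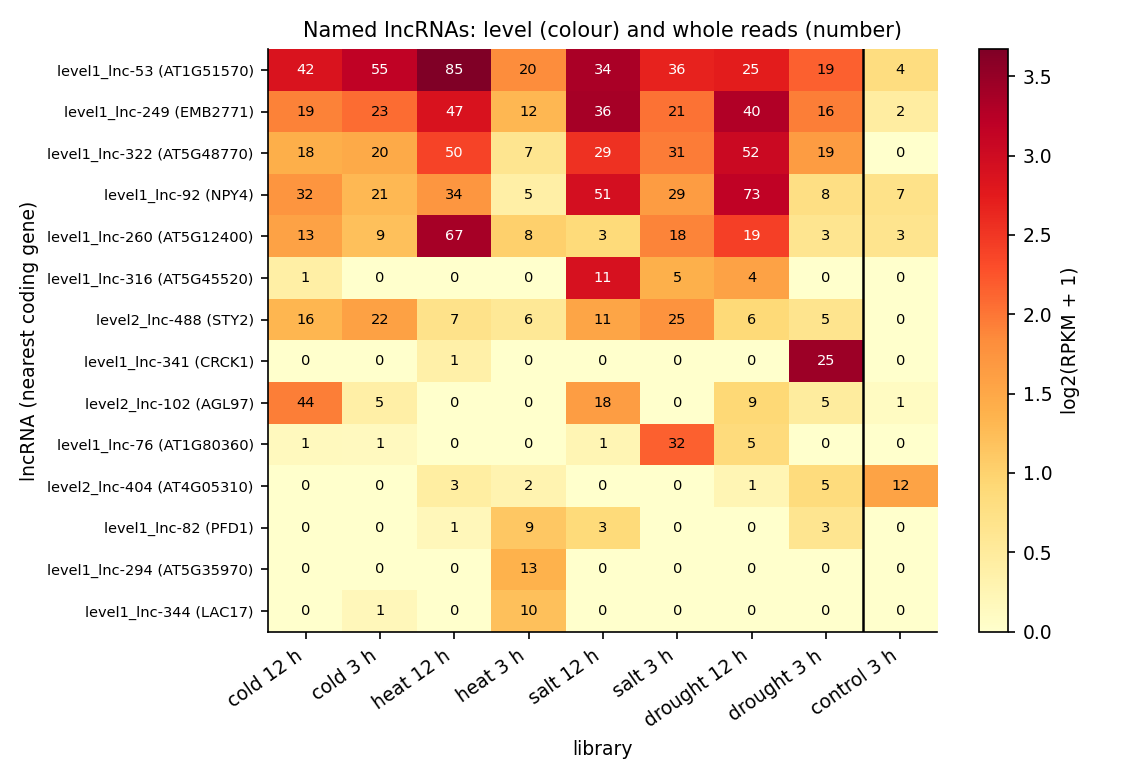
The 14 members named for their difference from the control or for their level are shown by library, with log2(RPKM + 1) as colour and whole reads as numbers, the coding gene they overlap or lie nearest to in brackets, and the control right of the line. The top rows are read in most or all libraries, and the rows of level1_lnc-341, level1_lnc-76 and level1_lnc-294 hold most of their reads in 1 library.

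Among members on the strand of their gene, level1_lnc-53 had the most reads. It is a 211 nt stretch on the 5′ UTR side of AT1G51570 (TAIR10 chr1:19124756-19124966, minus strand), a gene for a calcium-dependent lipid-binding protein. It had 85 and 20 reads after 12 h and 3 h of heat, 34 and 36 of salt, 25 and 19 of drought and 42 and 55 of cold, against 4 in the control. Its RPKM was 15.6-fold the control in heat at 12 h (95% interval of counting error 5.87 to 58.5), and in salt at 12 h 12.2-fold (4.34 to 47.2). It is the member called higher in all 8 stress libraries, though after rescaling its difference was 0.99 on the log2 scale in heat at 3 h and 1.00 in drought at 3 h, just under the threshold.

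Level1_lnc-249 lies on the 5′ UTR side of EMB2771 (AT5G05560, chr5:1640962-1641178, plus strand), which RefSeq describes as an E3 ubiquitin ligase. It had 47 and 12 reads after 12 h and 3 h of heat, 36 and 21 of salt, 40 and 16 of drought and 19 and 23 of cold, against 2 in the control. Every stress library was above the control, and the highest levels were 9.43 RPKM in salt at 12 h and 8.77 RPKM in drought at 12 h, against 0.366 RPKM. Heat at 3 h did not pass the rule, at 0.87 on the log2 scale, and its ratio of 4.08 has an interval of 0.908 to 37.5. With 2 reads in the control the ratio for salt at 12 h, 25.8, has an interval of 6.64 to 221.

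A pair of members sit at the starts of genes for PHD-finger proteins, a domain known for reading histone tails. Level1_lnc-260, on AT5G12400 (chr5:4013445-4013652, plus strand), had 67 and 8 reads after 12 h and 3 h of heat, 3 and 18 of salt, 19 and 3 of drought and 13 and 9 of cold, against 3 in the control. It was thus highest in heat at 12 h, 16.4-fold the control (5.37 to 81.4), and at the control's count of 3 reads in salt at 12 h and drought at 3 h. Level1_lnc-275, on AT5G22760 (chr5:7571235-7571478, plus strand), had 25 and 13 reads after 12 h and 3 h of heat, 7 and 9 of salt, 21 and 5 of drought and 15 and 5 of cold, against 2 in the control.

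Level2_lnc-488 lies on the 5′ UTR side of STY2 (chr4:17157301-17157632, minus strand), whose family of transcription factors acts in auxin synthesis and organ shape. It had 7 and 6 reads after 12 h and 3 h of heat, 11 and 25 of salt, 6 and 5 of drought and 16 and 22 of cold, against 0 in the control. Against a floor of 3 reads it was at least 5.61-fold higher in cold at 3 h and at least 6.66-fold higher in salt at 3 h. It also carries one of the highest H3K27me3 intensities of the members, 10.6 against a median of 0.996.

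Several other members of this position were read in 1 library above all. Level1_lnc-76, on AT1G80360 (chr1:30210903-30211197, minus strand), a gene for a pyridoxal phosphate-dependent transferase, had 32 reads in salt at 3 h, 1 in salt at 12 h, at most 5 in any other stress library and 0 in the control, which makes it at least 8.52-fold higher in salt at 3 h. Level1_lnc-341, on CRCK1 (chr5:23797716-23798098, plus strand), a calmodulin-binding receptor-like kinase, had 25 reads in drought at 3 h, 1 in heat at 12 h and 0 in all others and in the control. Its 2 exons add up to 97 nt, under the read length of 100 nt, so its RPKM of 9.87 in drought at 3 h rests on an unusual length. The same length holds for level1_lnc-316, on the leucine-rich repeat gene AT5G45520, with 11 and 5 reads in salt at 12 h and 3 h, 4 in drought at 12 h, 1 in cold at 12 h and 0 elsewhere, the control included. Level2_lnc-226, on the homeodomain gene BLH5, had 10 and 2 reads in drought at 12 h and 3 h and none in any other library.

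On the far strand of a gene, level1_lnc-322 was the highest. It lies at the 3′ end of AT5G48770, a disease resistance gene of the TIR-NBS-LRR class (chr5:19772865-19773206, plus strand), and also overlaps a RefSeq gene on the same strand, AT5G48775. It had 50 and 7 reads after 12 h and 3 h of heat, 29 and 31 of salt, 52 and 19 of drought and 18 and 20 of cold, against 0 in the control. All stress libraries were above the control, by at least 20.8-fold in drought at 12 h and at least 12.2-fold in heat at 12 h against the floor of 3 reads. Heat at 3 h, at least 1.59-fold higher, did not pass the rule, at 0.63 on the log2 scale.

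Level1_lnc-294, opposite the 3′ end of AT5G35970, a P-loop nucleoside triphosphate hydrolase gene, had 13 reads in heat at 3 h and 0 in the other 8 libraries, at least 2.95-fold higher than the control. Level1_lnc-344, opposite the 3′ end of LAC17, a laccase of lignin formation, had 10 reads in heat at 3 h, 1 in cold at 3 h and 0 in all others, at least 2.27-fold higher. Level2_lnc-595, opposite a coding exon of AT5G49250, had 16 and 1 reads in heat at 12 h and 3 h, at most 3 in the other stress libraries and 0 in the control. These 3 were each highest in heat, at 3 h in level1_lnc-294 and level1_lnc-344 and at 12 h in level2_lnc-595.

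Beside genes, level1_lnc-92 had the most reads. It has 3 exons, starts 486 bp from NPY4 and points away from it (chr2:9809213-9810038, minus strand), and NPY4 belongs to the NPH3 family known from auxin-dependent organ formation and phototropism. It had 34 and 5 reads after 12 h and 3 h of heat, 51 and 29 of salt, 73 and 8 of drought and 32 and 21 of cold, against 7 in the control. The 12 h library was above the 3 h library in all 4 stresses, and drought at 12 h was 12.5-fold the control (5.77 to 32.2). Its call in cold at 12 h was lost on rescaling, at 0.63 on the log2 scale.

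Level2_lnc-538, the second longest of the members at 659 nt, lies 95 bp upstream of the uncharacterised gene AT5G27889 on its strand. It had 76 and 24 reads after 12 h and 3 h of heat, 18 and 25 of salt, 16 and 14 of drought and 11 and 26 of cold, against 15 in the control. Heat at 12 h alone passed the rule, at 3.71-fold the control (2.12 to 6.96), and this call fell to 0.90 on the log2 scale on rescaling. The longest member, level2_lnc-13 at 690 nt, had 12 reads in all, and the third in length, level2_lnc-60 at 631 nt, had 8.

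Level1_lnc-334, printed above, lies 123 bp beyond the end of AT5G55400, an actin-binding calponin homology gene, and overlaps the RefSeq noncoding gene AT5G00660. It had 7 and 21 reads after 12 h and 3 h of heat, 21 and 3 of salt, 17 and 20 of drought and 13 and 17 of cold, against 6 in the control. Its level in salt was 4.59 RPKM at 12 h and 0.366 RPKM at 3 h, either side of the control's 0.916 RPKM.

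Level2_lnc-404, also printed above, starts 150 bp from the ubiquitin-like gene AT4G05310 and points away from it. It had 3 and 2 reads after 12 h and 3 h of heat, 0 and 0 of salt, 1 and 5 of drought and 0 and 0 of cold, against 12 in the control. Its level was at least 5.05-fold lower in cold at 12 h, at least 5.23-fold lower in cold at 3 h, at least 2.79-fold lower in salt at 12 h and at least 5.01-fold lower in salt at 3 h. In heat it was 5.46-fold lower at 12 h (1.47 to 30.1) and 8.82-fold lower at 3 h (1.96 to 81.2). All 8 stress libraries were below the control, though the 5 reads in drought at 3 h did not pass the rule.

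Level2_lnc-102 lies 432 bp upstream of AGL97, a MADS-box gene, and points away from it (chr1:17233384-17233871, plus strand). It had 0 and 0 reads after 12 h and 3 h of heat, 18 and 0 of salt, 9 and 5 of drought and 44 and 5 of cold, against 1 in the control. Level2_lnc-287, printed above, starts 215 bp from EIF4A1, a translation initiation factor gene, and had 14 and 2 reads in drought at 12 h and 3 h, at most 5 elsewhere under stress and 1 in the control. Level2_lnc-498, also printed, ends near the ribosomal protein gene AT5G02870 and had 12 and 0 reads in salt at 12 h and 3 h, at most 1 in the other stress libraries and 1 in the control. Level1_lnc-82, the last of the printed set, starts 417 bp from the prefoldin gene PFD1 and had 9 reads in heat at 3 h, 1 in heat at 12 h, at most 3 elsewhere and 0 in the control.

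The limma test of 12 h against 3 h, with the 4 stresses as pairs, was run on the 175 loci of the catalogue with a mean of at least 0.5 RPKM in the 8 stress libraries, of which 22 are members. No locus passed an adjusted p of 0.05 (0% of 175), while 32 loci and 7 of the members had an unadjusted p under 0.05. Of the 22 members, 17 were higher at 12 h, with a median difference of 0.68 on the log2(RPKM + 1) scale, against 0.46 over all 175 loci. Without the heat libraries the median was 0.40 over the 33 members then tested, against 0.47 over all 200 loci, which turns the order of the 2 medians. Without the drought libraries 4 of 164 loci passed (2.44%, lowest adjusted limma p 0.0088), none of them a member. The lowest adjusted p of limma among the members was 0.151 for level1_lnc-92, at 1.36 ± 0.38 (SE) on the log2 scale and higher at 12 h in 4 of 4 stresses. Level1_lnc-249 was next in size at 1.02 ± 0.43, with an adjusted limma p of 0.213 and 3 of 4 stresses higher at 12 h. Each 12 h library had a larger shift against the control than the 3 h library of its stress. After rescaling by the median ratio, 126 loci and 14 members were tested. Of these, 13 loci and 1 member had an unadjusted limma p under 0.05. The median difference was then 0.46 in the members and 0.26 over all loci, and 10 of the 14 members were higher at 12 h.

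The coding genes at the members were sorted by words of their RefSeq description. The gene of a locus is the one it overlaps, or else the nearest at any distance. For loci that overlap none, the median distance was 162.5 bp in the members and 1236 bp in the predicted intergenic loci. The shares below are thus of genes at unlike distances. Transcription factor or DNA binding genes were at 21 members (10.9%, against 6.24% of the other predicted loci), kinase or receptor genes at 12 (6.22%, against 5.22%), transporter or membrane genes at 9 (4.66%, against 5.99%) and disease resistance or defence genes at 4 (2.07%, against 1.02%). RNA binding or processing genes were at 3, ribosomal or translation genes at 2, chloroplast, transposon and pseudogene descriptions at 0, genes of unknown function at 36 and other described genes at 106. Of the 21 in the transcription factor or DNA binding group, 7 were called higher in any stress library (33.3%, near the 30.6% of all members). In this group 9 had at least 10 reads and 3 had none, and 9 lie on a coding exon from the other strand. At genes of this group 7 of 49 other predicted loci were called higher (14.3%), and 17 of 99 loci of the whole catalogue (17.2%). Median reads were 7 in the 21 members and 3 in the 49 other predicted loci, and the difference in calls was not tested. Level1_lnc-111, opposite ERF38, had 4 and 21 reads after 12 h and 3 h of cold, 6 and 2 of salt, 1 and 0 of heat, and 0 in drought and the control. Level1_lnc-274, on the strand of WRKY38, had 13 reads in drought at 12 h, 1 in salt at 3 h and 0 elsewhere, the control included. Level2_lnc-477, on the strand of NAC075, had 10 and 6 reads in cold at 12 h and 3 h, at most 4 in the other stress libraries and 0 in the control. No reads were found at the members beside MYC4 and WRKY32 and opposite NAC071.

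Of the kinase or receptor group, 5 of 12 members were called higher in any stress library (41.7%), against 59 of the 193 members (30.6%). At genes of that group 14 of the 41 other predicted loci were called higher (34.1%), and 22 of 88 loci of the whole catalogue (25%). Level1_lnc-323, on the strand of RLP56, had 6 and 3 reads after 12 h and 3 h of heat, 21 and 11 of salt, 3 and 1 of drought and 5 and 2 of cold, against 1 in the control. Level1_lnc-277, which points away from CaS, a calcium-sensing protein of the chloroplast, had 9 reads in salt at 3 h, 9 in drought at 12 h and 0 in all other libraries, the control included. These genes and those of the preceding group were picked for their reads after the values were seen, within groups that were fixed by words.

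By the authors' deposited table of polyadenylation, 73 members are classed Poly(A)+, 60 Bimorphic (found in both fractions), 28 Poly(A)- and 32 carry no class. The share without a class was 16.6% in the members and 51.5% in the other predicted loci. Median reads were 16.5 in the Bimorphic members, 9 in the Poly(A)-, 6 in the Poly(A)+ and 0 in those without a class. Called higher in any stress library were 32 of the 60 Bimorphic members (53.3%, against 53.0% of the other predicted loci of that class), 10 of the 28 Poly(A)- (35.7%, against 28.9%), 15 of the 73 Poly(A)+ (20.5%, against 14.8%) and 2 of the 32 without a class (6.25%, against 20.0%). The authors' deposited table of responsive lncRNAs lists 44 members as Poly(A)+ (22.8%, against 13.8% of the other predicted loci), most often for high light (24, or 12.4%, against 7.01%) and heat (22, or 11.4%, against 4.59%). It lists 11 members as Poly(A)- (5.70%, against 5.86%), 5 for heat, 4 for drought, 3 for salt and 1 for cold. Of those 11, 5 reached 10 reads in any library of the stresses named for them, level2_lnc-102 (44 reads), level2_lnc-595 (16), level2_lnc-287 (14), level2_lnc-498 (12) and level2_lnc-226 (10), and the other 6 did not reach that count.

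Chromatin at the members was described from the authors' calls and from their intensities, which are scores without a stated unit. H3K4me3, a mark of active promoters, was called at 64 members (33.2%, against 13.4% of the other predicted loci), H3K9Ac at 52 (26.9%, against 13.2%), H3K36me3 at 52 (26.9%, against 14.3%) and H3K4me2 at 50 (25.9%, against 10.8%). These calls differed by the authors' level. H3K4me3 was called at 44.2% of level 1 and 22.4% of level 2 members, and H3K9Ac at 37.9% and 16.3%. H3K36me3 was called at 38.9% and 15.3%, and H3K4me2 at 28.4% and 23.5%. The other predicted loci were not split by level. H3K9me2, a mark of silent heterochromatin, was called at 1 member (against 6.24%), and H3K27me1 at 1 (against 5.86%). DNA methylation in the CpG context was called at 12 members (6.22%, against 37.8%), CHG at 5 (2.59%, against 16.6%) and CHH at 1 (0.518%, against 12.7%), so that 181 of the 193 (93.8%, against 61.9%) carry no methylation call. The other predicted loci hold transposable element and small RNA precursor loci, whose median CpG intensities were 118.0 and 190.1, so the pooled values are no measure of the classes nearest to the members. Median CpG intensity was 3.05 in the members, 3.91 in the predicted intergenic loci and 10.4 in the predicted antisense loci. H3K36me3 was called at 5.31% of the intergenic and 23.4% of the antisense loci, the latter near the 26.9% of the members. H3K9Ac calls were at 6.19% and 13.3%, and H3K4me2 calls at 7.96% and 13.7%. CpG calls were at 17.3% of the intergenic and 29.3% of the antisense loci, H3K9me2 calls at 0.885% and 0.781%, and H3K4me3 calls at 7.52% and 13.7%. The rarity of H3K9me2 calls was thus shared with both classes, and CHG and CHH calls were rarer still in the antisense loci, at 0.781% and 0.391%.

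**Figure D5:**
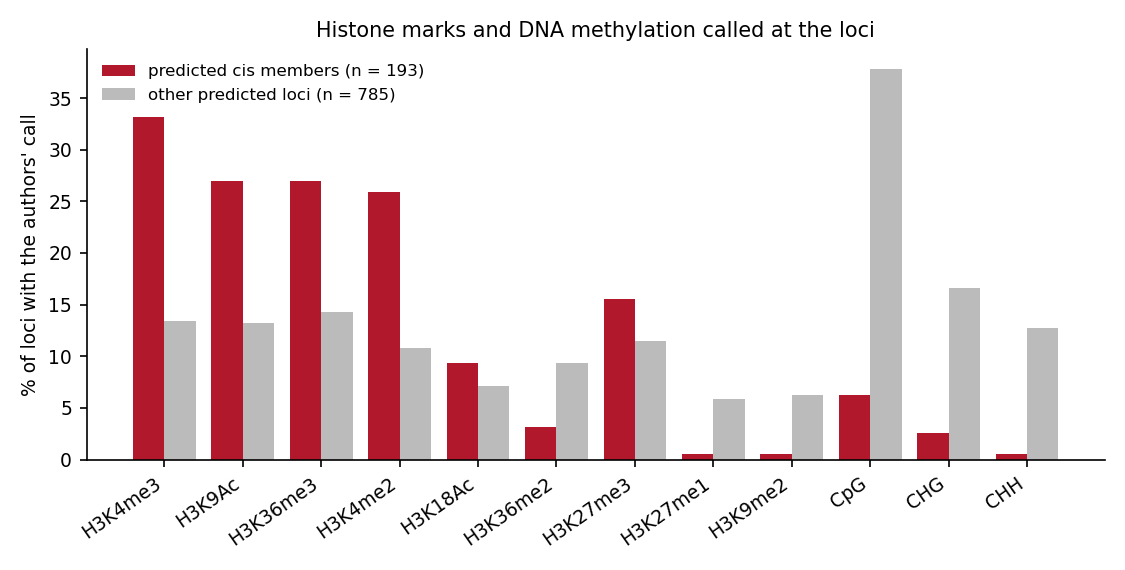
Bars give the share of loci, in percent, at which the authors called each histone mark or DNA methylation context, for the 193 members and the 785 other predicted loci. H3K4me3 stands at 33.2% in the members against 13.4%, and CpG methylation at 6.22% against 37.8%.

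The medians of histone intensity differed less than the calls did, but some of these medians are a recurring value. Exactly 0.6689 for H3K4me3 and 0.4466 for H3K36me3 were also the medians of the predicted intergenic loci, level 2 members and members with no read. Equal medians can thus be ties at a repeated value, and the share of loci that hold it was not counted. Median H3K4me3 intensity was 0.780 in the members and 0.669 in the other predicted loci, H3K9Ac 1.65 and 1.47, H3K36me3 0.447 and 0.447, and H3K4me2 1.62 and 1.32. The predicted antisense loci were above the members in all 4, with medians of 1.08 for H3K4me3, 2.30 for H3K9Ac, 1.85 for H3K36me3 and 2.39 for H3K4me2. At members with an H3K4me3 call the median intensity was 1.40, against 0.669 at those without, and 19 of the 64 called members were at or below the latter value. At the other predicted loci with the call the median was 6.14, against 0.669 without it, and 15 of 105 called loci were at or below it. For CpG methylation the called members had a median of 145 and those without 2.19, and none of the 12 called was at or below 2.19. The sources used here do not give the rule behind the calls.

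Chromatin also varied with position and with reads. Median H3K4me3 intensity was 1.62 in the 51 members on the strand of their gene, 0.950 in the 76 on the other strand and 0.669 in the 66 beside a gene, while the call ran the other way, at 13, 25 and 26 of them. The H3K4me3 median was 2.67 in members with at least 20 reads and 0.669 in those with no read. Both here and beside a gene, 0.669 is the recurring value named above. H3K27me3, the mark of Polycomb repression, was called at 30 members (15.5%, against 11.5% of the other predicted loci). In the predicted intergenic loci the share was 16.8%, above that of the members, and in the predicted antisense loci 11.7%. Of the 30 members with the call, 28 are of level 2. Those 30 had a median of 2 reads and 10 had none, against a median of 9 reads in the members without the call.

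Single members mark the ends of the chromatin range. The highest H3K4me3 intensity (15.3) and H3K18Ac intensity (4.71) were at level1_lnc-178, on the strand of AT3G46845, with 16 reads in all, and the highest H3K9Ac (12.7) at level1_lnc-85, opposite AT2G12461, with 17. Level2_lnc-585, on the QWRF motif gene AT5G43155, had the highest H3K36me3 (11.4) and H3K4me2 (7.37), level2_lnc-36, on a pentatricopeptide repeat gene, the highest H3K36me2 (5.74), and level2_lnc-446 the highest H3 itself (3.14). The highest H3K27me3 intensity (22.6) was at level2_lnc-260, opposite the start of the RING/U-box gene AT2G45135, which had no read in any library. The highest H3K9me2 (12.1) and H3K27me1 (26.8) intensities were at level1_lnc-122, opposite the end of the histone methyltransferase gene ASHH3, whose 8 reads were all in heat at 3 h. The authors called neither mark there, and the 1 member called for each had intensities of 10.2 for H3K9me2 and 18.3 for H3K27me1. Level2_lnc-321 had the highest CHH methylation (595) and no read, level2_lnc-437 the highest CHG (338.9) and 1 read, and level2_lnc-569, which lies 1748 bp from its nearest coding gene, the highest CpG (570) and 15 reads.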

How the data were processed

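Levels are RPKM values deposited by the authors, with 1 library a condition, on build TAIR10. The submitters' processing notes name Bowtie 0.12.9, TopHat2 2.0.8 and Cufflinks; the sources used here do not say which of them made the RPKM. Conservation, structure, histone and methylation values are scores deposited by the authors per transcript, and the randfold p-value and those of gene ontology terms are deposited p-values that enter no test here; class, level and list columns are the authors' own.

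RPKM times exon length was a whole multiple of 1 step in each library within 0.02 reads (2790 of 2790 non-zero predicted values, and 1922 of 1922 annotated ones once these were re-matched to the order of the locus number, 79 before), which gives the reads and the mapped reads, 17.6 M to 37.0 M a library. Ratios have exact binomial 95% intervals of reads, which cover counting error only; against 0 reads the floor is 3 reads per library. Differences are of log2(RPKM + 1), which understates the change of low loci, called at 2-fold with no test. 12 h was compared with 3 h by limma 3.58.1 (R 4.3.3; stress as block, trend, Benjamini-Hochberg over all loci tested), tested on simulated data. Positions and sequences are from RefSeq TAIR10.1, and copies from blastn 2.17.0 (90% identity, 80% coverage).

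Named members are up to 3 highest and 2 lowest per stress library among those past 2-fold, the 5 of highest mean RPKM, those called alike in 6 or more comparisons, the highest in each chromatin column, up to 5 listed as Poly(A)- with 10 or more reads, and the 3 longest; others are named with their reason. The members, lists and rules were chosen with earlier results of these data known. The files hold 24 further columns of per-sample values that were not used. Alternatives were another pseudocount, counting intervals, rescaling, filters on level, length, copies and authors' level, 1 value per transcript, and leaving out each stress.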

Additional observations from a re-analysis of the deposited data

How the results depend on the processing

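No paired analysis was possible because each condition has 1 library, except for time, where the stresses are the pairs. With a pseudocount of 0.1 RPKM the members called higher were 67 and 41 for drought at 12 h and 3 h, 62 and 53 for salt, 61 and 32 for heat and 62 and 45 for cold, and those lower 8 and 11, 11 and 11, 9 and 14, and 9 and 11 in that order; single reads pass at this setting. With no pseudocount and an interval excluding 1, the count was 12 in cold at 3 h and 7 in heat at 3 h, and 2 were lower in salt at 3 h. Rescaled, it was 7 in cold at 12 h, 13 in salt at 12 h and 3 in drought at 3 h. With members under a mean of 0.5 RPKM left out, 10 were higher in cold at 12 h, 7 and 1 in heat at 12 h and 3 h, 10 in salt at 12 h and 10 in drought at 12 h, and 0 were lower in any library, since level2_lnc-404 is itself below that mean. Level 1 alone gave 9 higher in cold at 12 h, 0 lower in any library, and medians of 0.744 for H3K36me3, 1.34 for H3K4me3, 2.69 for H3K9Ac and 1.72 for CpG. Without the 6 members of most reads, an alternative chosen after seeing the data, 4 were higher in cold at 3 h, 8 in heat at 12 h and 4 in drought at 3 h.

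None of the 55 called differences of the 31 named members changed sign on rescaling, while 6 of the 96 other differences of these members that were not 0 did. On rescaling 5 log2 differences of named members fell under the threshold, in level1_lnc-53 (0.99 in heat at 3 h and 1.00 in drought at 3 h), level1_lnc-92 (0.63 in cold at 12 h), level2_lnc-226 (0.98 in drought at 12 h) and level2_lnc-538 (0.90 in heat at 12 h). In limma's test of time 0 members were called under each of the 8 alternatives. Their lowest adjusted limma p was from 0.0917 without cold to 0.577 without a filter. Without the stress block 4 of 22 members had an unadjusted limma p under 0.05, and after rescaling 1 of 14. Few reads set the limit: 108 of the 193 members had under 10 reads in the 9 libraries together.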

Other observations

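Some members were read in 1 library above all, a pattern noticed in the data. Of the 85 members with at least 10 reads, 35 had at least 50% of their summed RPKM in 1 library, most often salt at 12 h (10 members) and drought at 12 h (7). These libraries have the fewest mapped reads, 17.6 M and 21.0 M, so 1 read weighs most there. On the median length it was worth 0.208 and 0.174 RPKM. The part of depth in this order of libraries was not tested, and the count was not made for the other loci. Level2_lnc-34 had 17 of its 17 reads in cold at 12 h, level1_lnc-65 had 20 of 21 in heat at 12 h, and level1_lnc-311 had 11 of 12 in salt at 3 h. With 1 library a condition, a difference between conditions and one between libraries cannot be told apart.

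The only members that overlap each other are level1_lnc-181 (chr3:19099365-19099617, minus strand) and level1_lnc-182 (chr3:19099460-19099732, plus strand), which share 158 bp on opposite strands at the 5′ UTR side of AT3G51470, a gene for a protein phosphatase of the PP2C family. Level1_lnc-181, on the strand of the gene, had 4 and 17 reads in salt at 12 h and 3 h, 1 in drought at 12 h and 0 in all other libraries. Level1_lnc-182 had 15 and 1 reads after 12 h and 3 h of heat, 2 and 3 of salt, 1 and 2 of drought and 2 and 1 of cold, against 0 in the control. The strand with most reads was thus the minus strand in salt at 3 h and the plus strand in heat at 12 h, a difference that was not tested.

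Of the members, 28 (14.5%) are named under a term in the authors' deposited table of gene ontology predictions, against 117 (14.9%) of the other predicted loci, with a median of 32 terms in the members and 37 in the other predicted loci.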
